A study of Mus musculus with 77 samples.

Results

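The genes described here are 9 that respond to oxidative stress or handle its products in liver: Nqo1, Gclc, Gclm, Srxn1, Txnrd1, Gsr, G6pdx, Ephx1 and Cat. They were chosen by name for their known roles, and their values were read in all 18 groups of a liver expression study. Of the 9, 8 have a value among the 18138 array IDs, and all 8 passed the filter on dim genes, which left 11324 genes for testing. Gsr, glutathione reductase, was not matched to an array ID and was not analysed here.

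RNA from livers of male B6C3F1 mice, a hybrid strain, was measured with 1-colour Illumina bead arrays, 77 in all, at the end of a 7-day exposure. Of the phthalate esters, di(2-ethylhexyl) phthalate (DEHP, with branched chains) was given at 750, 1500, 3000 and 6000 ppm. Butyl benzyl phthalate (BBP, with a benzyl and a butyl ester) was given at 1500, 3000, 6000 and 12000 ppm, and di-n-octyl phthalate (DNOP, with linear chains) at 1250, 2500, 5000 and 10000 ppm. Phenobarbital was given at 75, 150, 300 and 600 ppm. Each dose group had 4 samples, except 3 at 10000 ppm DNOP. The comparisons were made with 10 phthalate controls and 4 phenobarbital controls, both at 0 ppm. The labels name neither the vehicle or medium of dosing nor the age of the mice, and they do not say whether each sample is a separate animal, so p-values measure only the spread between these samples, which may be technical in part. Each sample name also carries a number whose meaning the labels do not give. The 4 samples of each phenobarbital dose share 2 such numbers, the 4 phenobarbital controls 3 and the 10 phthalate controls 4, whereas each phthalate-treated sample has its own within its group.

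NRF2 (gene Nfe2l2) is a transcription factor that the adaptor KEAP1 holds at a low level until electrophiles or oxidants modify KEAP1. NRF2 then binds antioxidant response elements with small MAF proteins and raises enzymes that make glutathione, supply NADPH and detoxify reactive compounds. Phthalate esters are known to activate PPARA in rodent liver, which multiplies peroxisomes and their hydrogen peroxide producing fatty acid oxidases, and phenobarbital activates the nuclear receptor CAR, which induces cytochrome P450 enzymes. The comparisons address whether genes of the antioxidant response differ between exposed and control livers.

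Values are normalized log2 intensities unless a fold is named, and levels of different genes were not set against each other because each array ID has its own brightness. A gene is called where limma's moderated test gave a Benjamini-Hochberg adjusted p under 0.05 over all 11324 genes, and it is detected on an array where its deposited detection p is under 0.05. Changes were also computed under 4 other scalings, 5 in all: no background correction, neqc's background, each array centred on its median, and the deposited matrix. Median centring moved the median of all genes by 0.55, 0.47 and 0.54 at 150, 300 and 600 ppm phenobarbital. Across arrays 36.88% to 46.64% of genes were detected (median 44.29%), and the mean signal ran between 132.2 and 519.5 (median 359.8). Of 6 hepatocyte markers on the array, 5 were detected on all 77 arrays. So were 4 of 5 stellate, 3 of 5 endothelial, 2 of 4 red cell and 1 of 6 macrophage markers. No lymphocyte, cholangiocyte or neutrophil marker was detected on all arrays. The samples were whole tissue, so fewer cells of a type and less RNA per cell cannot be told apart.

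Of the 10 phthalate controls, 3 carry the label number 32, and they stood apart from the other 7 in Ephx1. Ephx1 read 11.10 to 11.23 in the 3 numbered 32 and 9.90 to 10.65 in the other 7, with no overlap. The peroxisomal gene Ehhadh (mean 8.77 against 6.77) and the microsomal gene Cyp4a14 (mean 11.68 against 6.97), both known PPARA targets, were also higher in the 3 than in the other 7, and so was Pex11a (10.14 against 8.88). Srxn1 overlapped between these samples (mean 6.96 against 7.14), and so did Cat (11.85 against 11.92). Results that these 3 controls move most are therefore also given without them.

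**Figure D1:**
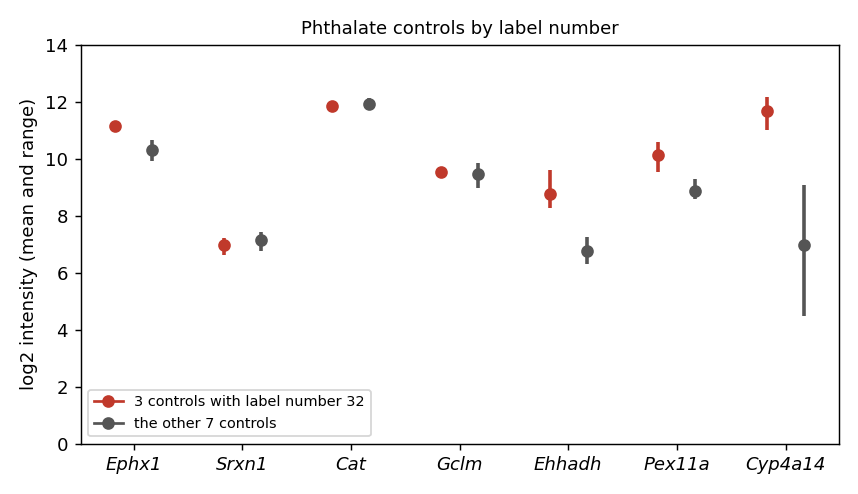
Mean and range of log2 intensity for Ephx1, Srxn1, Cat, Gclm, Ehhadh, Pex11a and Cyp4a14 in the 3 phthalate controls numbered 32 and in the other 7. Ephx1 (11.10 to 11.23 against 9.90 to 10.65), Ehhadh, Cyp4a14 and Pex11a separate the 3 from the 7, whereas Srxn1, Cat and Gclm overlap.

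Srxn1 and Ephx1 were the members called in the most comparisons, and their promoters are printed here because only 1 of them holds the element searched for. Srxn1 encodes sulfiredoxin, which restores over-oxidised peroxiredoxins, and lies on chromosome 2, 152105524 to 152111376, plus strand. Ephx1 encodes microsomal epoxide hydrolase, which opens epoxides to diols, and lies on chromosome 1, 180989556 to 181017569, minus strand. The sequences are the 250 bases before each gene's start, from RefSeq on build GRCm38.p6 (mouse), in the direction of transcription, with matches to TGANTCA, the core shared by AP-1 and many antioxidant response elements, in capitals.
Srxn1, chr2:152105274-152105523, plus strand: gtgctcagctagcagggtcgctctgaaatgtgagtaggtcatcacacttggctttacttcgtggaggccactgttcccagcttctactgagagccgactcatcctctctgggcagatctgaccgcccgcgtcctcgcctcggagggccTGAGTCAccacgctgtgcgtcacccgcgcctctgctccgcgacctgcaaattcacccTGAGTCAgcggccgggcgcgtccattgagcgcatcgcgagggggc
Ephx1, chr1:181017570-181017819, minus strand: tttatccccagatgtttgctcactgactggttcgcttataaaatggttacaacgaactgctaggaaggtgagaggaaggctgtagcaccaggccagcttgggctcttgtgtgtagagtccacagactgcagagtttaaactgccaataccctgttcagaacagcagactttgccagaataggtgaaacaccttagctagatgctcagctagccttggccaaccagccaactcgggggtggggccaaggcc

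Both strands of these windows were searched for TGANTCA and for TGACNNNGC, the core of the antioxidant response element, and a sequence can match both motifs at overlapping bases. The Srxn1 window held 2 matches to TGANTCA, starting 102 and 45 bases before the start, and none to TGACNNNGC. The Ephx1 window held neither motif, which says only that these letters are not in this window. Over 32851 mouse promoters of the same length, 6.75% held TGANTCA at least once, 0.338% held it at least 2 times and 10.2% held TGACNNNGC. Of the 7 members with a promoter entry, Gclm, Txnrd1 (1 of its 3 starts) and G6pdx held 1 match to TGACNNNGC each, and Nqo1 and Cat held neither motif. A match is a description of letters and not evidence of binding.

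Srxn1 rose at 1500, 3000 and 6000 ppm DEHP, and Ephx1 rose with it, whereas at 750 ppm both were called but the calls depended on the scaling. In livers given 6000 ppm DEHP, Srxn1 read 7.91, 8.97, 8.64 and 8.49, against a lowest value of 6.63, a median of 7.12 and a highest value of 7.42 in the 10 phthalate controls. At the lower doses it read 7.67, 7.68, 7.80 and 7.51 at 750 ppm, 7.92, 7.99, 8.16 and 7.997 at 1500 ppm, and 8.16, 9.14, 8.21 and 8.03 at 3000 ppm. Every DEHP sample thus lay above every control. The fold was 1.49 at 750 ppm (log2 change 0.58 ± 0.16 SE, adjusted p = 0.0455), 1.91 at 1500 ppm (adjusted p = 6.34e-05) and 2.46 at 3000 ppm (adjusted p = 1.39e-08). At 6000 ppm it was 2.67 (95% interval 2.13 to 3.36, adjusted p = 8.39e-10). The call at 750 ppm is a narrow one: without the 3 controls numbered 32 the log2 change was 0.53 with an adjusted p of 0.083. It was also lost without phthalate control 1, 3, 4, 6, 7 or 10 or any 1 of the 750 ppm samples (adjusted p up to 0.141). Under each of the 4 other scalings it did not pass (log2 change 0.34 to 0.605, adjusted p between 0.0774 and 0.345).

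In livers given 6000 ppm DEHP Ephx1 read 11.81, 12.70, 12.31 and 12.37, against a lowest value of 9.90, a median of 10.52 and a highest value of 11.23 in phthalate controls. At the lower doses it read 11.77, 11.89, 11.09 and 11.45 at 750 ppm, 11.58, 11.71, 11.63 and 11.84 at 1500 ppm, and 12.24, 11.87, 11.85 and 12.05 at 3000 ppm. Only 1 DEHP sample, at 750 ppm, lay within the control range, and the controls it overlapped were those numbered 32. The fold was 2.001 at 750 ppm (log2 change 1.001 ± 0.209 SE, adjusted p = 0.00399), 2.20 at 1500 ppm (adjusted p = 0.000135) and 2.74 at 3000 ppm (adjusted p = 3.98e-07). At 6000 ppm it was 3.36 (95% interval 2.51 to 4.49, adjusted p = 2.08e-09), and without the controls numbered 32 it was 3.99 (adjusted p = 2.43e-11). Without them the folds at the lower doses were 2.38, 2.62 and 3.25 in rising dose. With median centring the log2 change at 750 ppm was 0.98 and did not pass (adjusted p = 0.212).

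At 6000 ppm against 750 ppm DEHP, a comparison added after the data were seen, Srxn1 was higher by 0.84 on the log2 scale (adjusted p = 0.00686), and this call was lost without replicate 2 of the 6000 ppm group (0.68, adjusted p = 0.103). Between these doses 1.63% of all genes were called. The same difference for Ephx1 was 0.75 and did not pass (adjusted p = 0.124), although it did without replicate 1 of the 6000 ppm group (0.91, adjusted p = 0.0441). In all, 2, 2, 2 and 3 of the 8 measured members were called at 750, 1500, 3000 and 6000 ppm DEHP, beside 1.91%, 4.59%, 8.43% and 9.39% of all genes tested. The third at 6000 ppm was Nqo1, which was near background. The groups did not overlap for 1, 2, 3 and 3 members in rising dose (Srxn1, with Ephx1 from 1500 ppm, Cat at 3000 ppm and Nqo1 at 6000 ppm), beside 1.21%, 2.32%, 5.69% and 4.15% of all genes. The median change over the members at 6000 ppm was 0.16, against 0.00 over all genes. Hepatocyte markers summed to 29260 to 31270 (linear intensity) at 6000 ppm DEHP and to 33660 to 41190 in phthalate controls, with none of the 6 called. Called lower there were Stab2 (1 of 5 endothelial markers, median log2 change 0.087), Dcn (1 of 5 stellate markers, median -0.101) and Alas2 (1 of 4 red cell markers, median -0.759). Cd68 (1 of 5 macrophage markers, median -0.123) was called lower at 1500 ppm, and the red cell genes Hba-a1 and Alas2 (2 of 4, median -0.571) at 3000 ppm. The part of these markers in the changes of Srxn1 and Ephx1 was not tested.

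**Figure D2:**
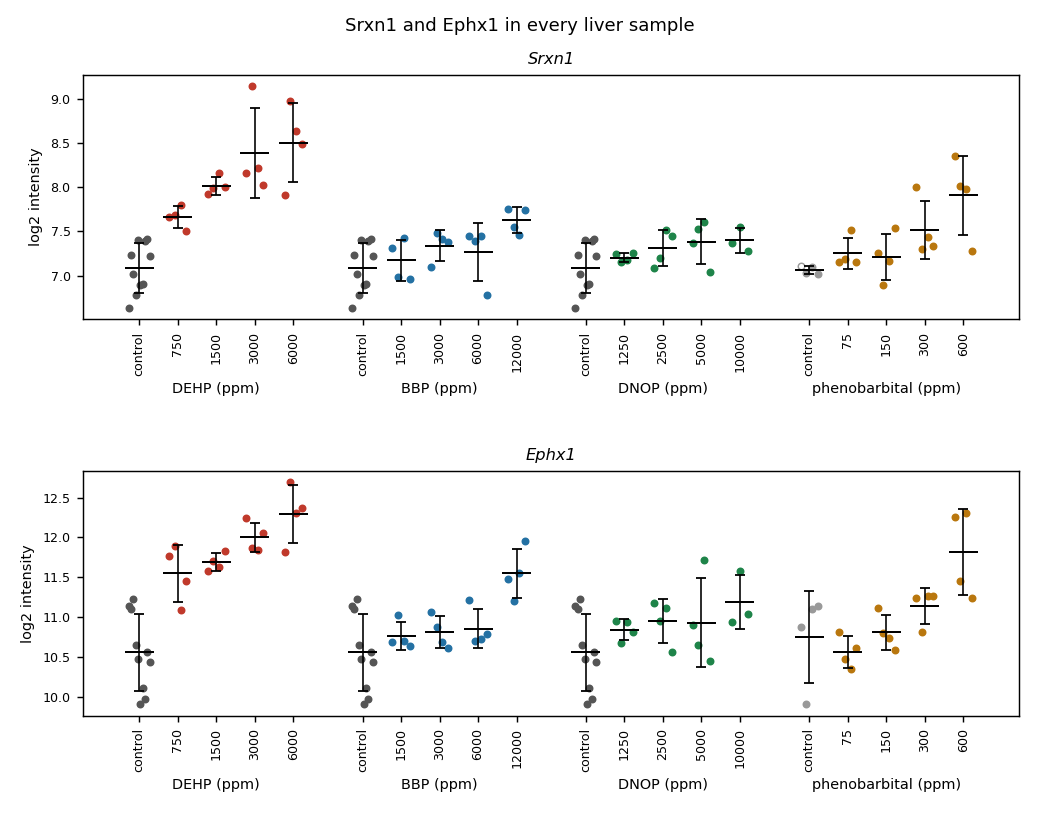
Log2 intensity of Srxn1 and Ephx1 in each sample (points), with the mean and SD of each group (lines and bars), for doses in rising order from the controls. DEHP samples lie above all phthalate controls for Srxn1 (7.51 to 9.14 against 6.63 to 7.42), and both genes are highest in the 6000 ppm DEHP group.

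Ephx1 rose at the highest BBP dose. In livers given 12000 ppm BBP, Ephx1 read 11.47, 11.21, 11.56 and 11.96, against 9.90 to 11.23 in phthalate controls. The groups overlapped by 1 BBP sample, and the fold was 2 (log2 change 1, adjusted p = 0.00142). Without the controls numbered 32 the log2 change was 1.25 (adjusted p = 2.15e-05). Over the lower BBP doses Ephx1 ran between 10.62 and 11.22, and none of these groups was called.

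Srxn1 in livers given 12000 ppm BBP read 7.75, 7.55, 7.46 and 7.75, all above the highest phthalate control (7.42). Its fold of 1.46 missed the threshold (log2 change 0.54, adjusted p = 0.0518), and it passed without phthalate control 2, 5, 8 or 9 (adjusted p between 0.0357 and 0.0473). Of the 8 members, 0, 0, 0 and 1 were called at 1500, 3000, 6000 and 12000 ppm BBP, beside 0%, 0%, 0.0795% and 2.92% of all genes in limma's test. At an unadjusted p under 0.05 the counts were 0, 0, 0 and 3, beside 3.55%, 3.85%, 8.73% and 14.6% of all genes. Srxn1 was the only member whose 12000 ppm samples lay apart from the controls, as did those of 2.02% of all genes.

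None of the members was called by limma's test at any DNOP dose, beside 0%, 0.238%, 0.212% and 0.0618% of all genes at 1250, 2500, 5000 and 10000 ppm, and at an unadjusted p under 0.05 the only member was Ephx1 at 10000 ppm, where 5.3% of all genes passed that limit. In livers given 10000 ppm DNOP, Ephx1 read 10.94, 11.58 and 11.04, against 9.90 to 11.23 in phthalate controls. The 2 lower DNOP samples lay inside the control range, and the log2 change of 0.64 (95% interval 0.175 to 1.1) did not pass (adjusted p = 0.672). Without the controls numbered 32 it was 0.885 (adjusted p = 0.0751). Srxn1 read 7.37, 7.55 and 7.27 at the same dose, and its log2 change was 0.31 (adjusted p = 0.949).

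DEHP and BBP share the doses 1500, 3000 and 6000 ppm, and these 3 pairs were compared directly. Srxn1 and Ephx1 were called higher under DEHP than under BBP at all 3 doses, although at 1500 ppm not with median centring. At 6000 ppm Srxn1 read 7.91 to 8.97 under DEHP and 6.78 to 7.45 under BBP, a difference of 1.24 (adjusted p = 6.37e-06), and Ephx1 read 11.81 to 12.70 under DEHP and 10.69 to 11.22 under BBP, a difference of 1.44 (adjusted p = 4.16e-05). Neither gene's groups overlapped at any of the 3 doses.

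The differences for Srxn1 were 0.85 at 1500 ppm and 1.04 at 3000 ppm (adjusted p = 0.00648 and 0.000125), and those for Ephx1 were 0.93 and 1.19 (adjusted p = 0.0265 and 0.000746). With median centring the differences at 1500 ppm were 0.77 for Srxn1 (adjusted p = 0.241) and 0.85 for Ephx1 (adjusted p = 0.618). The Ephx1 call at 1500 ppm was also lost without BBP replicate 1, 3 or 4 or DEHP replicate 1, 2 or 4 (adjusted p up to 0.0948). Adjusted over all genes of the 3 pairs together, Srxn1 had p values of 0.00414, 0.000186 and 7.38e-06 and Ephx1 of 0.0192, 0.0011 and 4.25e-05 in rising dose. At 1500, 3000 and 6000 ppm 2, 2 and 3 of the 8 members differed between DEHP and BBP, beside 1.69%, 4.11% and 2.24% of all genes, and 2, 4 and 3 did not overlap (at 3000 ppm Gclc and Cat besides), beside 4.68%, 14.4% and 6.11%. The third gene at 6000 ppm was Nqo1, described below. Cat at 3000 ppm read 12.23 to 12.47 under DEHP and 11.36 to 12.19 under BBP, a difference of 0.54 that missed the threshold (adjusted p = 0.096). DNOP was given at no dose shared with either, so the branched and linear octyl esters were not compared.

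**Figure D3:**
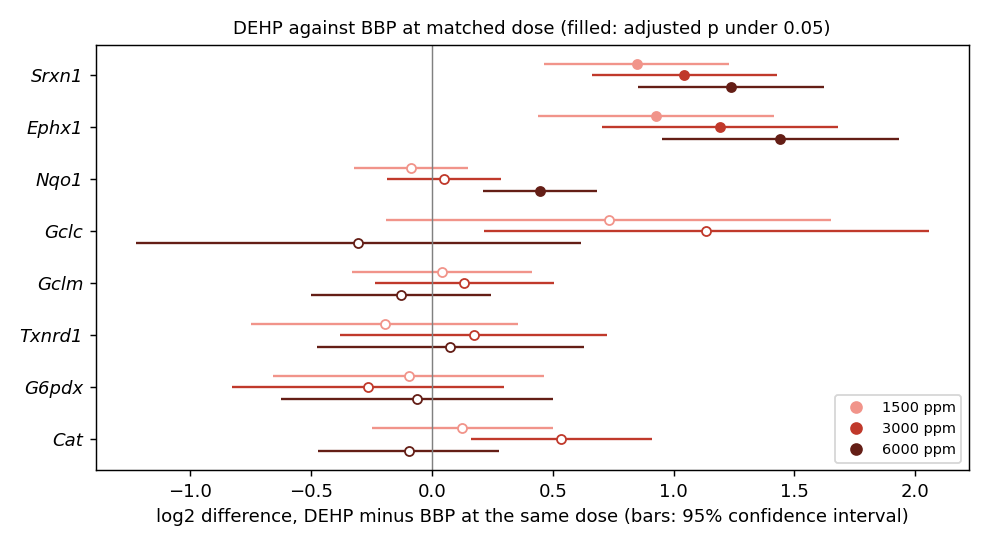
Difference in log2 intensity, DEHP minus BBP, for the 8 measured genes at 1500, 3000 and 6000 ppm, with 95% confidence intervals; filled points have an adjusted p under 0.05. Srxn1 (0.85, 1.04 and 1.24) and Ephx1 (0.93, 1.19 and 1.44) lie to the right of 0 at each dose.

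Srxn1 and Ephx1 rose at the highest phenobarbital dose under all 5 scalings. With median centring they also passed at 150 and 300 ppm, but so did 5181 and 3907 of 11324 genes tested. Of those genes 96.76% and 98.64% were higher, so these 2 passes are not particular to Srxn1 and Ephx1. In livers given 600 ppm phenobarbital, Ephx1 read 12.26, 11.46, 12.31 and 11.24, against 10.87, 9.90, 11.10 and 11.14 in phenobarbital controls. The groups did not overlap, and the fold was 2.12 (log2 change 1.08 ± 0.25 SE, adjusted p = 0.00292). At the lower doses Ephx1 changed by -0.17 at 75 ppm (adjusted p = 0.740), 0.07 at 150 ppm and 0.41 at 300 ppm (adjusted p = 0.330). With median centring it turned to 0.225 at 75 ppm (adjusted p = 0.816) and passed at 150 ppm (1.01, adjusted p = 0.023) and 300 ppm (1.31, adjusted p = 0.00729).

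Srxn1 in livers given 600 ppm phenobarbital read 8.35, 8.02, 7.98 and 7.28, against 7.11, 7.02, 7.09 and 7.02 in phenobarbital controls. All treated samples lay above the controls, 1 of them narrowly, and the fold was 1.79 (log2 change 0.84, adjusted p = 0.00323). At 300 ppm Srxn1 read 7.999, 7.30, 7.43 and 7.33, again above every control, with a log2 change of 0.45 that did not pass (adjusted p = 0.152). With median centring Srxn1 passed at 150 ppm (1.17, adjusted p = 0.000639) and 300 ppm (1.34, adjusted p = 0.000473). Of the 8 members, 0, 0, 0 and 2 were called at 75, 150, 300 and 600 ppm phenobarbital, beside 6.46%, 11.6%, 8.42% and 9.95% of all genes in limma's test, and at an unadjusted p under 0.05 the counts were 2, 1, 2 and 2, beside 22%, 27.5%, 22.9% and 24.5% of all genes. The groups did not overlap for 1, 1, 2 and 2 members, beside 6.56%, 18.3%, 14.4% and 14.1% of all genes. Between 600 and 75 ppm, a comparison added after the data were seen, Ephx1 differed by 1.26 (adjusted p = 0.00215), as 1.2% of all genes did, and Srxn1 by 0.66 (adjusted p = 0.095, and 0.00288 with median centring). The Ephx1 difference did not pass with samples of 1 number averaged (adjusted p = 0.0715) or with only the phenobarbital groups in the fit (adjusted p = 0.0622). At 600 ppm Adgre1 (1 of 5 macrophage markers, median 0.241) was called higher and Lrat and Dcn (2 of 5 stellate markers, median -0.325) lower. The part of these markers in the values of Srxn1 and Ephx1 was not tested.

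The change under 600 ppm phenobarbital was compared with the change under the highest dose of each phthalate, each against its own controls. No member differed by limma's test at an adjusted p under 0.05, beside 3.2%, 2.39% and 1.13% of all genes for DEHP, BBP and DNOP. At an unadjusted p under 0.05 the counts were 4, 0 and 0, beside 15.4%, 15.4% and 13.6% of all genes. Phenobarbital's change minus DEHP's was -0.67 for Ephx1 (95% interval -1.32 to -0.01) and -0.58 for Srxn1 (95% interval -1.09 to -0.06), and it was 0.65 for Gclm (adjusted p = 0.154). With median centring the differences for Ephx1 and Srxn1 turned to 0.07 each. For Nqo1, near background, it was -0.52 (adjusted p = 0.054), and it passed with neqc's background, median centring, the deposited matrix, no block or the replicate block, and without phenobarbital control 3, DEHP replicate 1 or 4 or phenobarbital replicate 1 (adjusted p between 0.0145 and 0.0479). Against BBP the differences for Ephx1 and Srxn1 were 0.08 and 0.30, and against DNOP 0.45 and 0.53. With median centring Srxn1 passed in both (1.15 and 1.35, adjusted p = 0.0246 and 0.0306), beside 1113 and 182 of 11324 genes tested. The 2 control groups themselves differed in none of the members (limma, 0 called and 0 at an unadjusted p under 0.05), beside 4.68% of all genes called and 19% at an unadjusted p under 0.05. With median centring 3 differed (Srxn1, Gclm and Cat), beside 4402 of 11324 genes tested, so many genes moved with that scaling.

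Gclc and Gclm encode the catalytic and the modifier subunit of glutamate-cysteine ligase, the rate-limiting enzyme of glutathione synthesis, and neither was called at any of the 16 doses, except Gclm with median centring at 150, 300 and 600 ppm phenobarbital (1.06, 0.89 and 1.38, adjusted p = 0.00685, 0.0266 and 0.000936). With that centring 5181, 3907 and 5157 of 11324 genes were called at these doses, and the median of all genes was 0.55, 0.47 and 0.54. Gclc was dim and was detected on 59 of 77 arrays. In livers given 1500 ppm DEHP it read 6.34, 6.01, 6.56 and 5.91, and at 3000 ppm 5.80, 6.17, 6.22 and 6.33, against a lowest value of 4.50, a median of 4.97 and a highest value of 6.09 in phthalate controls. Of these 8 samples, 5 lay above the control range, and the log2 changes of 1.17 and 1.09 missed the threshold (adjusted p = 0.0758 and 0.0739). Both passed without phthalate control 8 (1.28 and 1.21, adjusted p = 0.0428 and 0.0389) and with array quality weights (adjusted p = 0.0212 and 0.00866). At 6000 ppm DEHP it read 4.46, 4.87, 5.73 and 6.15, with a change of 0.26 (adjusted p = 0.792), so the values of the highest dose were spread over the control range. Over the 5 scalings the changes ran from 0.18 to 1.17 at 1500 ppm and from 0.16 to 1.29 at 3000 ppm, so their size is not fixed.

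In livers given 12000 ppm BBP, Gclc read 6.37, 6.75, 5.56 and 5.82, a change of 1.08 (adjusted p = 0.140) that lay between 0.175 and 1.15 over the scalings. At 75 ppm phenobarbital Gclc read 4.71, 6.67, 6.29 and 5.59, and at 150 ppm 5.38, 6.64, 5.71 and 4.89, against 4.54, 4.82, 4.70 and 4.45 in phenobarbital controls, where it was detected on 0 of 4 arrays. Only the 150 ppm group lay wholly above these controls. The log2 changes of 1.19 and 1.03 did not pass (adjusted p = 0.12 and 0.1502), and depending on the scaling they lay anywhere from 0.18 to 1.19 at 75 ppm and from 0.14 to 1.13 at 150 ppm. Over all 16 dose comparisons Gclc changes were positive in 15.

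Gclm was detected on all 77 arrays, and its changes ran between -0.35 (750 ppm DEHP, adjusted p = 0.330) and 0.36 (600 ppm phenobarbital, adjusted p = 0.239), positive in 7 of 16. In livers given 6000 ppm DEHP it read 9.05, 8.98, 9.47 and 9.25, against a lowest value of 8.98, a median of 9.46 and a highest value of 9.86 in phthalate controls. At 600 ppm phenobarbital it read 10.04, 9.91, 9.56 and 9.71, against 9.38, 9.75, 9.36 and 9.27 in phenobarbital controls. Both pairs of groups overlapped.

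Nqo1, NAD(P)H quinone dehydrogenase and a commonly used reporter of NRF2 activity, was near background throughout and detected on 15 of 77 arrays. In livers given 6000 ppm DEHP it read 4.84, 5.60, 5.00 and 4.79, against a lowest value of 4.41, a median of 4.48 and a highest value of 4.60 in phthalate controls. The groups did not overlap and limma's test called it (log2 change 0.565, adjusted p = 3.53e-05), but its detection p was under 0.05 on 0 of the 4 DEHP arrays and on 2 of the 10 controls. Yet its linear signal before normalization ran from 111.9 to 155.5 on these DEHP arrays and from 86.61 to 125.8 in the controls. How the detection p of genes with several probes was made is not given. The size of the change is not fixed: over the 5 scalings it ran from 0.06 to 0.62, called in each. Without replicate 2 of the 6000 ppm group the change was 0.38 (adjusted p = 0.00886). Against 6000 ppm BBP, where it read 4.63, 4.50, 4.63 and 4.66 and was detected on 0 of 4 arrays, the difference was 0.45 (adjusted p = 0.0219), and between 0.045 and 0.52 over the 5 scalings. That call was lost without the same DEHP replicate (0.27, adjusted p = 0.533) and without BBP replicate 2 (0.41, adjusted p = 0.0959). Elsewhere Nqo1 was not called, and 14 of its 16 changes were positive.

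Txnrd1, thioredoxin reductase, was detected on 36 of 77 arrays and was called nowhere. Its changes ran between -0.30 (1250 ppm DNOP) and 0.64 (300 ppm phenobarbital), positive in 7 of 16. In livers given 300 ppm phenobarbital it read 5.25, 5.64, 4.75 and 4.85, against 4.41, 4.49, 4.63 and 4.41 in phenobarbital controls, without overlap. The change there did not pass (adjusted p = 0.156) and ran from 0.065 to 0.64 over the 5 scalings. At 6000 ppm DEHP it read 4.93, 4.34, 5.57 and 4.83, against a lowest value of 4.42, a median of 4.69 and a highest value of 5.67 in phthalate controls, and the groups overlapped.

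G6pdx, glucose-6-phosphate dehydrogenase, which supplies NADPH for glutathione reduction, was detected on 76 of 77 arrays and was called nowhere. Its changes were positive in 2 of 16 comparisons, between -0.42 (3000 ppm DEHP, adjusted p = 0.320) and 0.22 (5000 ppm DNOP). In livers given 3000 ppm DEHP it read 5.25, 4.98, 5.09 and 4.80, against a lowest value of 4.83, a median of 5.42 and a highest value of 6.15 in phthalate controls. The DEHP samples lay in the lower part of the control range or just under it.

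**Figure D4:**
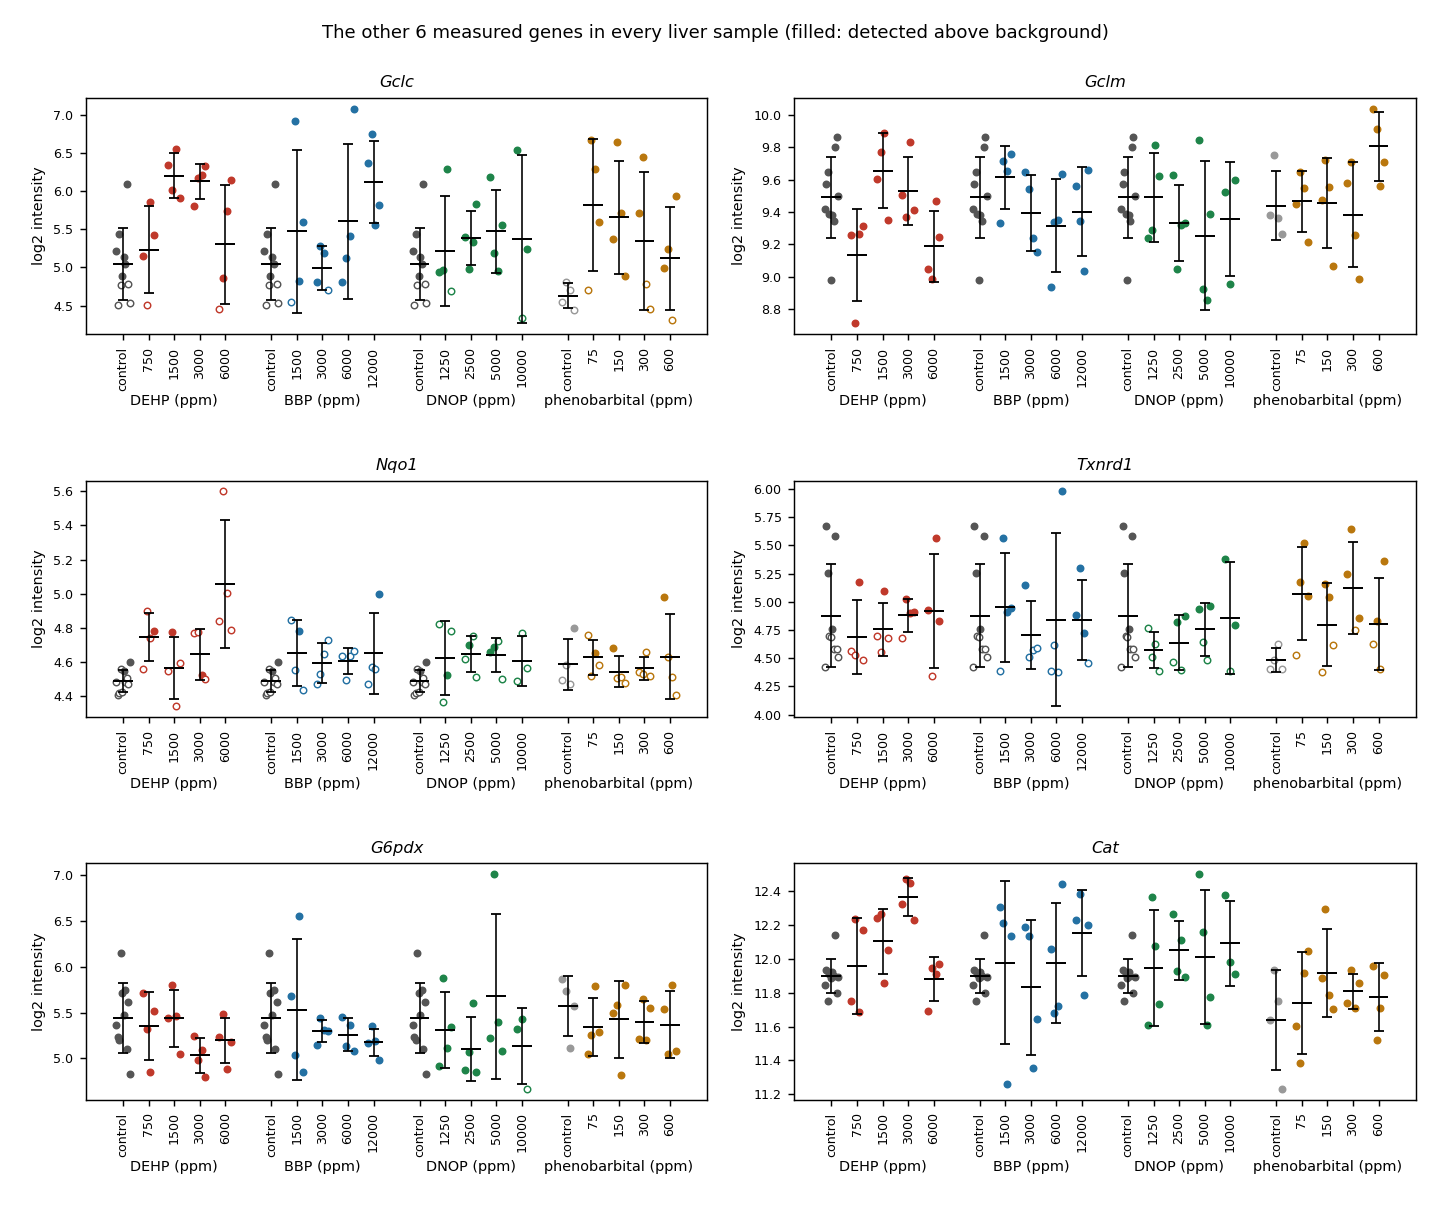
Log2 intensity of Nqo1, Gclc, Gclm, Txnrd1, G6pdx and Cat in each sample, with filled points where the gene was detected above background and the mean and SD of each group. Gclm and Cat were detected on all 77 arrays, and Nqo1 on 15 of 77, so most of its points are open.

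Cat, peroxisomal catalase, which breaks down hydrogen peroxide, was called at no dose of any compound, except with median centring at 150, 300 and 600 ppm phenobarbital (1.09, 0.95 and 0.92, adjusted p = 0.0032, 0.0125 and 0.0105). With that centring 5181, 3907 and 5157 of 11324 genes were called at these doses. The median of all genes was then 0.55, 0.47 and 0.54. In livers given 3000 ppm DEHP Cat read 12.32, 12.47, 12.45 and 12.23, against a lowest value of 11.75, a median of 11.90 and a highest value of 12.14 in phthalate controls. The groups did not overlap, and the log2 change of 0.47 just missed the threshold (adjusted p = 0.0543) but passed without phthalate control 8 (0.495, adjusted p = 0.0415), with no block (adjusted p = 0.0441), with array quality weights (adjusted p = 0.00992) and among genes detected on at least 39 arrays (adjusted p = 0.0476). At 6000 ppm DEHP Cat read 11.69, 11.95, 11.91 and 11.97, within or just under the control range, with a change of -0.02 (95% interval -0.34 to 0.30). The changes were 0.06 at 750 ppm and 0.21 at 1500 ppm DEHP, 0.25 at 12000 ppm BBP (adjusted p = 0.483), 0.19 at 10000 ppm DNOP and 0.13 at 600 ppm phenobarbital.

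Ehhadh, the peroxisomal bifunctional enzyme of fatty acid beta-oxidation, rose 23.2-fold at 6000 ppm DEHP (adjusted p = 1.22e-11), 20.1-fold at 12000 ppm BBP (adjusted p = 1.61e-09) and by 2.50 on the log2 scale at 10000 ppm DNOP (adjusted p = 0.012). At 6000 ppm BBP Ehhadh rose by 2.38 (adjusted p = 0.00984) and Cyp4a14, a microsomal fatty acid hydroxylase, by 3.95 (adjusted p = 0.0166). Without the controls numbered 32 these were 2.96 and 5.31 on the log2 scale, and the Ehhadh folds were 34.7 at 6000 ppm DEHP and 30 at 12000 ppm BBP. At 2500 ppm DNOP both genes missed the threshold against all 10 controls and passed without these 3 (Ehhadh 2.01, adjusted p = 0.0122, and Cyp4a14 3.98, adjusted p = 0.000563). At 6000 ppm BBP the changes of Ephx1 and Srxn1 were 0.31 and 0.18, and without the controls numbered 32 they were 0.55 and 0.13, with neither called (adjusted p = 0.430 and 0.941 without them).

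Among 10 peroxisomal and PPARA target genes 8 were called higher at 6000 ppm DEHP, 8 at 12000 ppm BBP, 2 at 10000 ppm DNOP and 0 at 600 ppm phenobarbital, beside 5.23%, 1.49%, 0.0618% and 4.36% of all genes called higher. Pex11a, which divides peroxisomes, passed at 10000 ppm DNOP without the controls numbered 32 (1.07, adjusted p = 0.0112). The list's median changes were 1.118, 1.068, 0.728 and 0.045. Among oxidases that release hydrogen peroxide, Acox2, a branched-chain acyl-CoA oxidase, rose by 0.34 at 6000 ppm DEHP (adjusted p = 0.00272) and by 0.27 at 12000 ppm BBP (adjusted p = 0.0482). Under 600 ppm phenobarbital Acox3, of the same family, was called lower (-0.80, adjusted p = 0.0118), although it was detected on 1 of 4 treated arrays and 0 of 4 controls and turned to 0.25 with median centring.

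**Figure D5:**
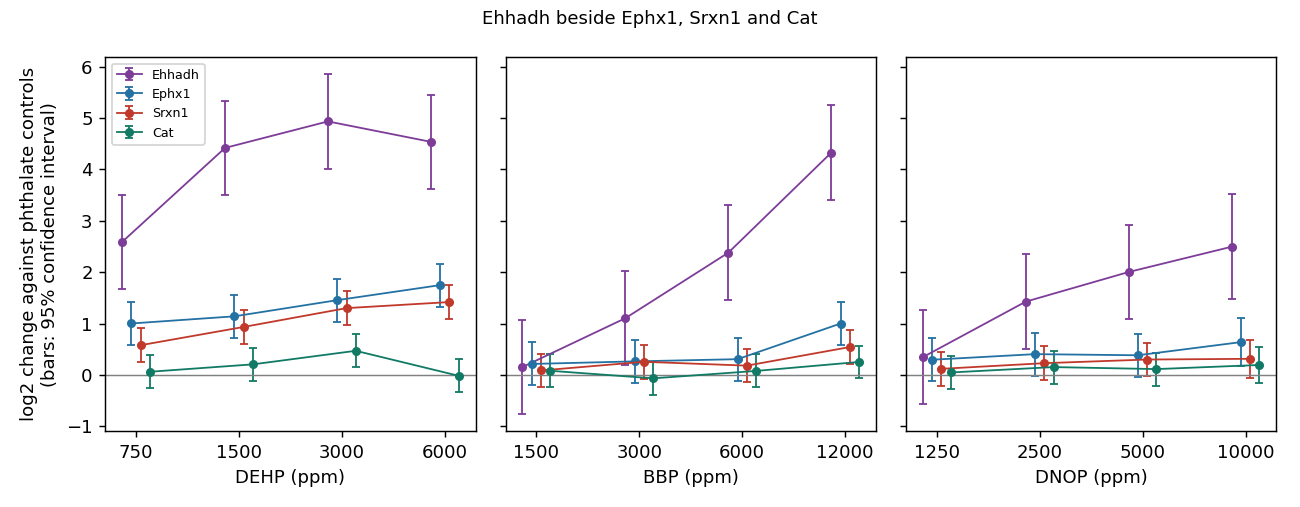
Log2 change against the phthalate controls, with 95% confidence intervals, for Ehhadh, Ephx1, Srxn1 and Cat over the 4 doses (ppm) of DEHP, BBP and DNOP. At 6000 ppm DEHP Ehhadh (4.54) is raised, as are Ephx1 (1.75) and Srxn1 (1.42), whereas Cat (-0.02) lies at 0.

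The other NRF2-linked genes were taken from a list of 34, of which 30 were tested. At 6000 ppm DEHP 9 were called higher (Gsta2, Gstm4, Me1, Pgd, Taldo1, Abcc2, Abcc3, Blvrb and Cyp2a5) and 1 lower (Gstp1), with a median change of 0.17. Over all genes 5.23% were called higher and 4.16% lower at this dose, with a median of 0.00. At 12000 ppm BBP 3 were higher (Gstm4, Me1 and Abcc3) and 1 lower (Gstp1), beside 1.49% and 1.43% of all genes. At 10000 ppm DNOP limma's test called none of the list, beside 0.0618% of all genes, and Abcc3 passed without the controls numbered 32 (1.57, adjusted p = 0.000462). At 600 ppm phenobarbital 9 were higher (Gsta1, Gsta2, Gstm1, Gstm2, Gstm3, Gstm4, Abcc3, Sqstm1 and Cyp2a5) and 1 lower (Tkt), with a median of 0.29, beside 4.36% and 5.59% of all genes and a median of 0.01. Several genes of this list, Me1, Abcc3 and Cyp2a5 among them, are known to answer to PPARA or CAR as well as to NRF2.

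Abcc3, an efflux transporter of conjugated organic anions, rose at all 4 DEHP doses (log2 changes 1.88 to 2.70) and was 6.29-fold higher at 6000 ppm (adjusted p = 4.99e-12). It was 9.01-fold higher at 600 ppm phenobarbital (adjusted p = 2.11e-11, 6.56 to 17.8 over the 5 scalings), and under DNOP it passed at 2500 ppm (1.23, adjusted p = 0.021) and 5000 ppm (1.35, adjusted p = 0.0114). Abcc3 was also called higher at 75, 150 and 300 ppm phenobarbital and at 6000 and 12000 ppm BBP. Gstm4, a glutathione S-transferase, rose by 1.44 at 6000 ppm DEHP, 1.15 at 12000 ppm BBP and 1.19 at 600 ppm phenobarbital. Me1, the NADPH-producing malic enzyme, rose by 1.79 at 6000 ppm DEHP (adjusted p = 0.0294, and 0.0702 without the controls numbered 32) and 2.36 at 12000 ppm BBP (adjusted p = 0.00711). Gsta1, a glutathione S-transferase detected on 0 of 4 controls, rose by 3.37 at 600 ppm phenobarbital (adjusted p = 6.66e-07), and over the 5 scalings its fold ran from 2.53 to 10.6. Cyp2a5, a cytochrome P450, rose 5.58-fold there (adjusted p = 1.52e-08, 4.87 to 11.5 over the scalings) and by 0.75 at 6000 ppm DEHP (adjusted p = 0.0468, and 0.0545 without the controls numbered 32).

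Of 8 NRF2 regulators 6 were tested. Nfe2l2 itself was called at 750, 1500, 3000 and 6000 ppm DEHP (log2 changes 0.70, 1.04, 0.81 and 0.56 in rising dose, adjusted p = 0.0289, 9.04e-05, 0.00184 and 0.0453) and at 12000 ppm BBP (0.72, adjusted p = 0.0161). It was dim: detection p was under 0.05 on 1, 1, 0 and 0 of 4 arrays at these DEHP doses and on 1 of 4 at 12000 ppm BBP, against 3 of 10 phthalate controls. Over the 5 scalings its change ran from 0.18 to 1.04 at 1500 ppm DEHP and from 0.12 to 0.82 at 12000 ppm BBP, called in each, and from 0.083 to 0.77 at 6000 ppm DEHP, called in 2. The call at 6000 ppm DEHP was also lost without the controls numbered 32 (adjusted p = 0.0775). Keap1 changed by 0.02 at 6000 ppm DEHP (adjusted p = 0.948), 0.04 at 12000 ppm BBP and -0.36 at 600 ppm phenobarbital (adjusted p = 0.118), which turned to 0.75 with median centring. NRF2 is controlled mainly through its protein, which these arrays do not measure.

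Of 17 other antioxidant genes tested, 3 were higher and 1 lower at 6000 ppm DEHP, beside 5.23% and 4.16% of all genes. Gstk1, a peroxisomal and mitochondrial glutathione transferase, rose by 0.65 (adjusted p = 0.000226), Gpx4, a lipid hydroperoxide peroxidase, by 0.46 (adjusted p = 0.00645) and Glrx, glutaredoxin, by 0.41 (adjusted p = 0.00237), while Sod3, extracellular superoxide dismutase, fell by 0.56 (adjusted p = 0.0468). The Sod3 call was lost without the controls numbered 32 (adjusted p = 0.127) and held in 2 of the 5 scalings. At 600 ppm phenobarbital, beside 4.36% and 5.59% of all genes, Glrx rose by 0.43, whereas Gstk1 fell by 0.74 (adjusted p = 0.000982) and Sod3 fell by 0.74 (adjusted p = 0.0288). With median centring the fall of Gstk1 was gone (log2 change 0.001). At 12000 ppm BBP, beside 1.49% and 1.43% of all genes, Glrx rose by 0.38 and Prdx4, a peroxiredoxin of the secretory pathway, fell by 0.32 (adjusted p = 0.0491, and 0.0661 without the controls numbered 32).

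Of 11 general stress genes tested, including heat shock, metallothionein and unfolded protein response genes, none was called at 6000 ppm DEHP, 12000 ppm BBP or 10000 ppm DNOP, and 1 was at 600 ppm phenobarbital: Gadd45a, a DNA damage inducible gene, which rose 2.99-fold (adjusted p = 0.00665, 1.37 to 4.73 over the 5 scalings). Of all genes 9.39%, 2.92%, 0.0618% and 9.95% were called in these groups. As a check of CAR activity, Cyp2b10 was called higher at 600 ppm phenobarbital (log2 change 7.74, adjusted p = 1.19e-32), where it was detected on 4 of 4 treated arrays and 0 of 4 controls, and its fold ran from 46.1 to 214.1 over the 5 scalings. At 6000 ppm DEHP it was called with a change of 1.98 (0.32 to 2.18 over the scalings, called in 4 of 5), detected on 3 of 4 DEHP arrays and 1 of 10 phthalate controls. Cyp3a11 rose 27.5-fold at 600 ppm phenobarbital (22.3 to 47.2 over the scalings) and 11.1-fold at 6000 ppm DEHP. Of the 4 tested genes of this CAR panel all 4 were called higher in each of these groups, 1 at 12000 ppm BBP (Cyp2b10) and 0 at 10000 ppm DNOP, beside 4.36%, 5.23%, 1.49% and 0.0618% of all genes for phenobarbital, DEHP, BBP and DNOP.

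Over the 18 group means the tested genes nearest to Srxn1 by Pearson correlation were Ephx1 (r = 0.961), Adam11 (r = 0.956) and Entpd5 (r = 0.955), and those nearest to Ephx1 after Srxn1 were Entpd5 (0.952) and Adam11 (0.951). Entpd5, a nucleoside diphosphatase of the endoplasmic reticulum, rose by 1.55 at 6000 ppm DEHP, 1.01 at 12000 ppm BBP and 1.02 at 600 ppm phenobarbital. Adam11, a membrane protein of the ADAM family, rose by 0.98 and 0.88 at 6000 ppm DEHP and 600 ppm phenobarbital (from 0.10 and 0.09 upward over the 5 scalings). Adam11 was dim, with a mean of 4.74 over all arrays. Nearest to Nqo1 were Cxcr1, Rims2 and Dgkh (0.863, 0.849 and 0.84), all near background. The points share arrays, and the 12 phthalate groups share 1 set of controls.

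In order of group means, Srxn1 was highest at 6000, 3000 and 1500 ppm DEHP (8.50, 8.39 and 8.02), followed by 600 ppm phenobarbital (7.91), 750 ppm DEHP (7.66) and 12000 ppm BBP (7.63), and lowest in the phthalate and phenobarbital controls (7.09 and 7.06). Ephx1 was highest at 6000 and 3000 ppm DEHP (12.30 and 12.00), then 600 ppm phenobarbital (11.82), 1500 ppm DEHP (11.69) and 750 ppm DEHP and 12000 ppm BBP (11.55 each), and lowest in phthalate controls (10.56). Cat was highest at 3000 ppm DEHP (12.37) and lowest in phenobarbital controls (11.64). Gclc was highest at 1500 ppm DEHP (6.20), Txnrd1 at 300 ppm phenobarbital (5.12), G6pdx at 5000 ppm DNOP (5.68) and Gclm at 600 ppm phenobarbital (9.805). For each of the 8 genes the ranges of neighbouring groups overlapped in all 17 steps of this order.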

How the data were processed

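Per the file headers, the deposited signal table holds an average bead intensity (linear scale) and a detection p-value for each of 18138 array IDs on 77 arrays. The authors named these intensity values as not normalized, and the array means differ. The deposited detection p-value compares each signal with the array's negative control beads. How it was made for genes with several probes is not given, which bears on the detection counts of Nqo1 and Nfe2l2. Per the labels' protocols, RNA came from Trizol extraction with a column clean-up and DNase I, and MessageAmp reagents made biotinylated cRNA from it. A second deposited table of processed intensity served as an alternative, and its normalization is not given in the sources used here. Array IDs were read as symbols (14307), matched through a RefSeq synonym (2680) or left as given (1151).

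The background of each array (means 77.36 to 123.2, median SD 5.608) came from detection p-values on the grid of 798 negative controls. Intensities were corrected by the normal-exponential model, given an offset of 16, taken to log2 and quantile normalized. The offset understates folds of dim genes. For dim genes the precision rests on signal over background, and for all genes on how many arrays a group has. Genes detected on at least 3 arrays entered 1 limma 3.58.1 fit (R 4.3.3) of 18 group means, with the label number (62 numbers, correlation 0.09895) as a random block and 59 residual degrees of freedom. The method was tested on simulated data.

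The members and all gene lists were chosen with earlier results of these data known. Named are all members, up to 3 called genes with the largest change per list and compound at the top dose, panel genes (Ehhadh, Cyp4a14, Pex11a, Cyp2b10, Cyp3a11, Nfe2l2 and Keap1) and, for each called member, the 3 genes nearest by correlation. Other genes listed beside a count were named after their values were seen. P-values of the 3 DEHP and BBP pairs were adjusted over all genes of the pairs, in place of the planned adjustment over the members. Alternatives covered background, scaling, filter, block, array weights and each sample left out. For genes other than the members, fits without the controls numbered 32 and under other scalings were added after the data were seen. Figures were drawn with matplotlib 3.10.9. A withheld item of that panel is not reported here.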

Additional observations from a re-analysis of the deposited data

Results flagged for a closer look

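Of 136 sets of a member's samples within a group, 14 held 1 sample farther from the others than Dixon's 95% limit allows, which chance gives in about 1 in 20 sets. For Srxn1 these were replicate 2 at 3000 ppm DEHP (9.14, others 8.03 to 8.21), replicate 4 at 6000 ppm BBP (6.78, others 7.39 to 7.45) and replicate 3 at 75 ppm phenobarbital (7.52, others 7.15 to 7.18). For Ephx1 they were replicate 2 at 1500 ppm BBP (11.03, others 10.64 to 10.69), replicate 1 at 6000 ppm BBP (11.22, others 10.69 to 10.78) and replicate 2 at 300 ppm phenobarbital (10.81, others 11.24 to 11.26). Txnrd1 had replicate 3 at 750 ppm DEHP (5.18, others 4.49 to 4.56), replicate 1 at 3000 ppm BBP (5.15, others 4.51 to 4.59) and replicate 4 at 6000 ppm BBP (5.98, others 4.38 to 4.62). Replicate 4 at 6000 ppm BBP thus stood apart in both Srxn1 and Txnrd1.

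Cat had replicate 3 at 1500 ppm BBP (11.26, others 12.13 to 12.30) and replicate 8 of the phthalate controls (12.14, others 11.75 to 11.93). Gclc had replicate 3 at 1250 ppm DNOP (6.28, others 4.70 to 4.96), Gclm had replicate 2 at 750 ppm DEHP (8.71, others 9.26 to 9.31) and G6pdx had replicate 2 at 5000 ppm DNOP (7.01, others 5.08 to 5.39).

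The direct test of DEHP against BBP at the same dose passed for Srxn1 at 1500, 3000 and 6000 ppm (differences 0.85, 1.04 and 1.24), for Ephx1 at the same doses (0.93, 1.19 and 1.44) and for Nqo1 at 6000 ppm (0.45).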

How the results depend on the processing

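The calls of Srxn1 and Ephx1 at 6000 ppm DEHP and 600 ppm phenobarbital held under all alternatives and left-out samples run. Srxn1 ran between 1.02 and 1.80 at 6000 ppm DEHP and between 0.58 and 1.87 at 600 ppm phenobarbital, and Ephx1 between 1.615 and 1.995 and between 0.79 and 1.99.

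The count of members called at 750 ppm DEHP was 1 in place of 2 with no background correction, with neqc's background, with the deposited matrix, with no filter, with samples of 1 number averaged and without the controls numbered 32, and 0 with each array centred on its median. Left-out samples gave 1 to 2 there, 1 in 10 of the 14 cases, where Srxn1 lost its call. Other counts under left-out samples ran from 2 to 4 at 3000 ppm DEHP (4 without phthalate control 8, which adds Gclc and Cat), 1 to 2 at 12000 ppm BBP, 0 to 1 at 75 ppm phenobarbital (Gclc without replicate 1), 1 to 2 between DEHP and BBP at 1500 ppm and 0 to 1 for phenobarbital minus DEHP. The count at 1500 ppm DEHP was 3 without phthalate control 8, which adds Gclc. Array quality weights gave 3 at 1500 ppm DEHP, 4 at 3000 ppm DEHP, 3 at 12000 ppm BBP and 4 between DEHP and BBP at 3000 ppm. The number of all genes called varied over the alternatives too, with ranges given in the last paragraph. A higher count of members is therefore not by itself a result about the members. At 12000 ppm BBP the count was 2 with genes detected on at least 39 arrays and with no block.

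Median centring moves the median of all genes by 0.55, 0.47 and 0.54 at 150, 300 and 600 ppm phenobarbital and by -0.44 between the control groups (phenobarbital minus phthalate). There the members called were 4, 4 and 4 (Srxn1, Ephx1, Gclm and Cat at each dose), 3 between the controls (Srxn1, Gclm and Cat), 2 and 1 for phenobarbital minus BBP and minus DNOP, 1 for phenobarbital minus DEHP and 0 between DEHP and BBP at 1500 ppm. With this centring 5181, 3907 and 5157 of 11324 genes were called at these doses and 4402 between the controls. For phenobarbital minus BBP, DNOP and DEHP they numbered 1113, 182 and 267, and between DEHP and BBP at 1500 ppm 45. Gclm at 300 ppm phenobarbital turned to 0.894 (adjusted p = 0.0266). At 600 ppm phenobarbital 96.06% of called genes were then higher, against 43.83%. Phenobarbital minus DEHP also gave 1 with neqc's background, the deposited matrix and no block.

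Over 253 pairs of phthalate-treated samples with the same REP number, correlations of their deviations from group means ran from -0.64 to 0.66 (median 0.05). Of these, 102 exceeded 0.1. Correlations between samples with different REP numbers were not computed, so these values cannot show whether the numbers pair the samples. With the REP numbers as a replicate block the members called were 2 at 12000 ppm BBP (Srxn1 0.53, adjusted p = 0.0461) and 1 for phenobarbital minus DEHP. The block gave Cat 0.48 (adjusted p = 0.0258) at 3000 ppm DEHP. The causes of these differences were not tested.

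Over the alternatives the genes called among all tested ran from 761 to 1252 at 6000 ppm DEHP (1063 in the fit as reported), 619 to 1896 at 3000 ppm (955), 133 to 1281 at 1500 ppm (520) and 43 to 334 at 750 ppm (216). They ran from 3 to 98 at 6000 ppm BBP (9) and 111 to 867 at 12000 ppm (331). For phenobarbital they ran from 16 to 997 at 75 ppm (732), 547 to 5181 at 150 ppm (1312), 396 to 3907 at 300 ppm (954) and 570 to 5157 at 600 ppm (1127), and between the control groups from 150 to 4402 (530). With 1 sample left out the count at 6000 ppm DEHP ran from 649 to 1160. Under DNOP the counts ran from 2 to 194 at 2500 ppm (27), 12 to 109 at 5000 ppm (24) and 6 to 273 at 10000 ppm (7). Between DEHP and BBP they ran from 45 to 402 (191), 243 to 1141 (465) and 128 to 495 (254) in rising dose, and for phenobarbital minus DEHP, BBP and DNOP from 175 to 495 (362), 109 to 1113 (271) and 67 to 234 (128).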
